A study of Homo sapiens with 34 samples.

Results

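NKX2-5 shRNA cells were compared with WT cells after 10 days of differentiation toward the cardiac lineage. The libraries were chosen from the sample labels: NKX2-5 shRNA day 10 replicates 1 and 2, and WT day 10 replicates 3 and 4, which are 4 of the 34 libraries of the series. WT day 10 replicates 1 and 2 were left out because their values do not follow the transcript identifiers of the table. All cells were H1, an established line of human embryonic stem cells (ESCs). The knockdown cells carried a lentiviral GIPZ shRNA against NKX2-5 and had been selected with puromycin. The line with the best knockdown among 5 vectors was used, so the comparison rests on 1 hairpin. WT cells were not unmodified, since they had received either the empty vector or a hairpin to GFP. Both groups were treated with CHIR99021 (an inhibitor of the kinase GSK3β), then with IWP2 (an inhibitor of WNT secretion), and later with insulin, in Essential 8 basal medium without FGF2, TGFβ and insulin. Libraries were made from stranded total RNA, and the values are read counts for 1 RefSeq transcript per gene. ZEB2 shRNA cells of day 10 (replicates 3 and 4) share the fit, and libraries of day 6 serve for 1 further comparison.

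NKX2-5 encodes a homeodomain transcription factor of the early heart. With GATA4, TBX5 and MEF2C it activates genes of the sarcomere, of calcium handling and of ion channels, which give cardiomyocytes their beat. The heart, the blood and the endothelium all arise from early mesoderm, and blood and endothelium share progenitors that use TAL1, GATA2 and RUNX1. Yolk sac and liver endoderm, which secretes AFP, transthyretin and apolipoproteins, forms from definitive or extraembryonic endoderm beside the cardiac mesoderm.

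The targeted gene was read first. NKX2-5 lies on chromosome 5 of GRCh37 from 172659112 to 172662314, on the minus strand. It was counted 14 and 66 times in the shRNA libraries and 2067 and 1563 times in WT. In CPM, the usual unit of counts relative to the normalized library size, that is 0.687 and 3.16 against 108 and 172, and the groups did not overlap. The rest of the text gives levels in CPM, with the 2 shRNA libraries (replicates 1 and 2) first and the 2 WT libraries (replicates 3 and 4) second. Changes are log2 fold changes of shRNA over WT from edgeR's quasi-likelihood test. The first number after a change is its standard error and the second the p-value adjusted over all genes tested.

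Of 17004 genes tested, 1243 were called at 8-fold and 1% FDR, the thresholds of the study for this day, which is 7.31%. Of these, 759 were higher (4.46% of all genes tested) and 484 lower (2.85%). At 5% FDR without a fold threshold 43.9% of genes passed, 3962 of them higher (23.3%) and 3498 lower (20.6%), and in this text a gene "rose" or "fell" when it passed 5% FDR. The median change of all genes was 0.03. The number of calls depended on both WT libraries: it was 572 without WT replicate 3 and 398 without WT replicate 4, where the remaining WT library was assumed to vary like the other groups. Without NKX2-5 shRNA replicate 2, 740 genes were called lower. The split between directions also moved in a fit where replicates 1 and 2 of both WT and ZEB2 shRNA replaced replicates 3 and 4. With WT replicates 1 and 2 in place of 3 and 4, after their values had been matched to transcript identifiers by a model of their order (called realigned from here on), 1031 of 16342 genes were called (6.31%), 478 higher (2.92%) and 553 lower (3.38%), and 44.7% passed 5% FDR, 23.4% higher and 21.3% lower. Of the 1243 calls 1204 were tested there, 1196 had the same direction and 672 were called again, with the same NKX2-5 shRNA libraries in both comparisons. Counts over 1 transcript per gene summed to 22395020 and 20153630 in the shRNA libraries and to 20878272 and 9189943 in WT. A count of 0 allowed up to 3 counts, or 0.147 and 0.144 CPM in the shRNA libraries and 0.157 and 0.33 CPM in WT, and such limits and bounds cover counting error only. With 2 libraries per group, the p-values measure the spread between libraries. The study calls these biological replicates, and the labels do not state whether they are separate cultures. The spread was estimated over 6 libraries, since ZEB2 shRNA replicates 3 and 4 share the fit, and these lay closer together than the NKX2-5 shRNA libraries. With only the 4 libraries compared, 996 genes were called, 590 higher and 406 lower, and 5597 passed 5% FDR.

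**Figure D1:**
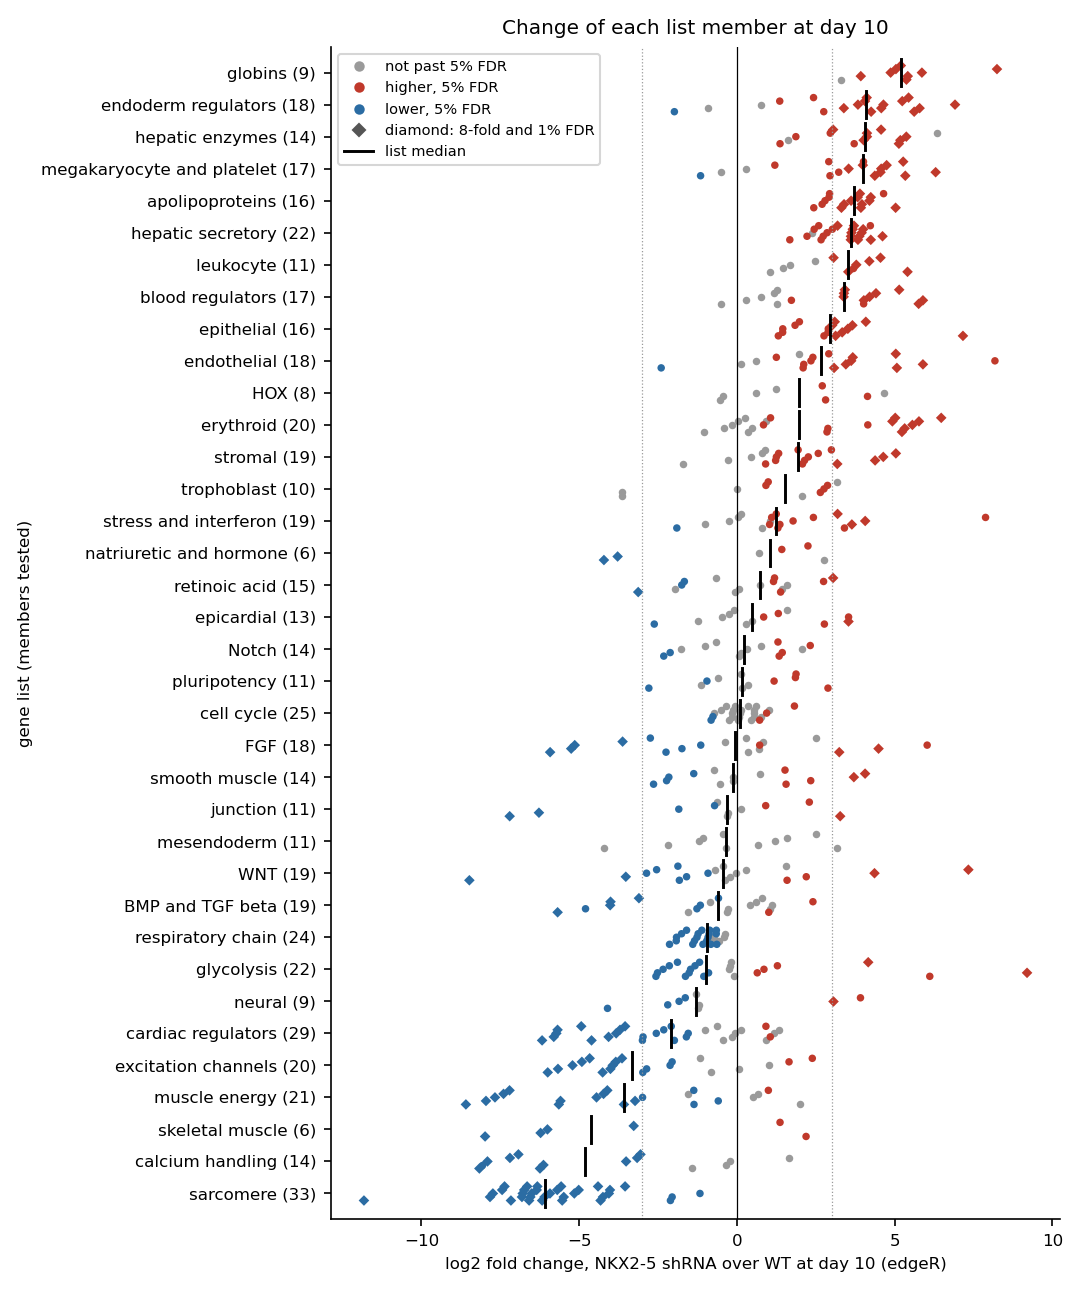
Log2 fold change of NKX2-5 shRNA over WT at day 10 (x axis) for each tested member of 36 gene lists (y axis, ordered by the list median, with the number of members tested). Each point is a gene, grey where it did not pass 5% FDR, red where it rose and blue where it fell, diamonds mark genes called at 8-fold and 1% FDR, black bars are list medians and dotted lines mark 8-fold. The sarcomere list sits lowest, with a median of -6.10, and the globins highest, with a median of 5.20.

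The contractile genes were lower almost as a whole. Of the 34 sarcomere genes listed, 33 passed the filter on low counts, all 33 fell, and 30 of them were called. The median change was -6.10 (-5.92 with the bound used for genes near 0 counts in 1 group), and the summed level of the list was 5808 and 4692 CPM in shRNA cells against 93877 and 83105 CPM in WT. A gene can pass the filter through 1 group alone, so counts over tested members describe the list and were not used as support for it, and in RNA from whole cultures fewer cells of a type and less RNA per cell cannot be told apart. The study named several of these genes on the same samples, so the direction of the list is not independent of them. The gene left out by the filter, MYL2 (a ventricular myosin light chain), was counted 8 times in WT replicate 3 and 0 times in the other 3 libraries.

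TNNT2, cardiac troponin T of the thin filament, was at 1.37 and 40.5 CPM in shRNA cells and at 2021 and 1383 CPM in WT. Both shRNA libraries were far below both WT libraries, although they differed from each other more than the WT libraries did (change -6.35, 1.31, 0.00769). TNNI1, the slow skeletal troponin I that fetal heart also uses, was at 1.91 and 41.6 against 1612 and 1528 CPM, a change of -6.17 (1.20, 0.00617). The heavy chain of atrial myosin, MYH6, was at 3.97 and 82.8 against 7619.7 and 6681 CPM (-7.36, 1.33, 0.00456). The Z-disc gene LDB3 was at 1.28 and 5.41 against 495 and 672 CPM, a change of -7.44 (0.69, 0.000417). SMYD1, a methyltransferase and chaperone of myosin in muscle, was at 0.0981 and 3.93 against 462 and 457 CPM (-7.83, 1.06, 0.00151), and TRIM55, a ubiquitin ligase of the sarcomere, at 0.638 and 1.05 against 195 and 168 CPM (-7.73, 0.31, 9.39e-05). For these genes the groups were far apart, and no shRNA library overlapped with WT. Lack of overlap was part of the rule that named some of them, and 35.4% of all genes tested were lower without overlap. TTN, which encodes titin, kept more of its level: it was at 4246 and 2827 CPM in shRNA cells and 60417 and 54586 CPM in WT (-4.02, 0.38, 0.000427). The 3 sarcomere genes that fell without being called were TPM1, XIRP2 and ACTC1, with changes of -2.11, -2.05 and -1.17. Without WT replicate 3 the adjusted p was 0.128 for XIRP2 and 0.119 for ACTC1, and without WT replicate 4 it was 0.101 and 0.114.

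The promoters of TNNT2 and LDB3 are shown because they hold words of muscle promoters just before the start of 2 genes that fell together. Each stretch is the 150 bases before the RefSeq transcript start on GRCh38.p14, read 5′ to 3′ on the strand of the gene, with matches in capitals. In TNNT2 (minus strand, chr1:201377681-201377830) the capitals mark the MCAT word CATTCC, bound by TEAD factors, and in LDB3 (plus strand, chr10:86668361-86668510) a CArG box, bound by serum response factor.
TNNT2: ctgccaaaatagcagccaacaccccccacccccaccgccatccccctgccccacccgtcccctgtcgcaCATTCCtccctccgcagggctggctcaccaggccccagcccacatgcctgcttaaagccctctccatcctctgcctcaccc
LDB3: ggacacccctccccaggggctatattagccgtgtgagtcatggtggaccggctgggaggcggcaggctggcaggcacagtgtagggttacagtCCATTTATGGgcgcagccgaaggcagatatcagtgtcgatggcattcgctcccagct
On either strand, the MCAT word was found in this window of 7.09% of 27305 RefSeq promoters and a CArG box in 0.765%. A match is a description of the letters only, and these 6 promoters of the text were picked after values and matches had been seen.

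Of 14 genes of the sarcoplasmic reticulum and calcium handling, 10 fell, 9 of them called, and none rose, with a median of -4.82 (-3.45 with bounds). RYR2, the calcium release channel, was at 6.67 and 25.5 against 2428 and 2290.1 CPM (-7.19, 0.67, 0.000427). TRDN, which anchors that channel, was at 0.0981 and 1.25 against 178 and 149 CPM (-7.91, 0.71, 0.000385). SRL, a calcium-binding protein of the reticulum, was not counted in shRNA replicate 1 and was at 0.431 CPM in replicate 2, against 67.2 and 60.8 CPM in WT (-8.16, 0.77, 0.000437). ATP2A2, which encodes SERCA2 and is used in most cell types, was at 399.9 and 244 against 427 and 328 CPM, a change of -0.23 (0.27, 0.525) that did not pass the test and was 0.08 without shRNA replicate 2.

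Of 20 genes of cardiac excitation, 14 fell, 10 of them called, and 2 rose (median -3.31). CACNA1C, the pore of the L-type calcium channel, was at 12.4 and 12.6 against 278 and 356 CPM (-4.67, 0.24, 0.000152), with close agreement between replicates in both groups. Its subunit CACNB2 was at 0.883 and 5.79 against 104 and 98.2 CPM (-4.91, 0.71, 0.00194). The potassium channel gene KCNJ5 was at 0.589 and 1.25 against 41.7 and 52.6 CPM (-5.67, 0.42, 0.000209). KCNJ12, an inward rectifier, had no count in shRNA replicate 1 and was at 0.527 CPM in replicate 2, against 14.5 and 20.2 CPM in WT (-6.00, 0.86, 0.00186).

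The 11 junction genes did not move one way, since 4 fell and 3 rose. The connexin GJA3 was not counted in shRNA replicate 1, was at 1.25 CPM in replicate 2, and was at 82.6 and 104 CPM in WT (-7.20, 0.94, 0.00134). CTNNA3, the α-catenin of cardiac intercalated discs, was at 3.53 and 7.33 against 412 and 430.1 CPM (-6.27, 0.38, 0.000165). Other connexins rose. GJA1, found in many cell types, was at 331 and 424 against 91.1 and 62.5 CPM (2.29, 0.26, 0.000841), and GJA5, found in atrium and arterial endothelium, at 6.13 and 4.02 against 0.575 and 0.439 CPM (3.27, 0.50, 0.00229).

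Genes of muscle energy use fell in 16 of 21 tested and 12 of them were called, while 1 rose (median -3.58). CKM, the muscle creatine kinase, was not counted in shRNA replicate 1 and was at 1.29 CPM in replicate 2, against 278 and 229 CPM in WT, a change of -8.59 (0.94, 0.000742). MB, which encodes myoglobin, was absent from replicate 1 and at 0.335 CPM in replicate 2, against 36.6 and 34.6 CPM (-7.67, 0.86, 0.000795). PPP1R3A, a subunit that directs phosphatase 1 to glycogen in muscle, had no count in replicate 1 and was at 0.383 CPM in replicate 2, against 59.3 and 39.3 CPM (-7.95, 0.80, 0.00054). The small heat shock protein gene HSPB7 was at 0.687 and 7.57 against 609 and 786 CPM (-7.40, 0.98, 0.00141). The 1 gene that rose, ANKRD1, was at 369 and 228 against 186 and 113 CPM (1.00, 0.31, 0.0343). Its adjusted p was 0.0817 without shRNA replicate 1 and 0.174 without WT replicate 4. Against realigned WT replicates 1 and 2 its change was -2.24.

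The promoters of HSPB7 and PPP1R3A are shown because both genes fell and both hold the MEF2 word before the start. MEF2 factors bind an A/T-rich form of this word, but the search allowed any base in its middle. In both promoters shown the middle holds only A and T. MEF2C fell too, and whether it acts on these promoters was not tested. The stretches are 150 bases on the minus strand, at chr1:16018044-16018193 for HSPB7 and chr7:113919010-113919159 for PPP1R3A (GRCh38.p14). Capitals mark the MEF2 word and the TATA word TATAAA or its reverse complement, and in PPP1R3A the latter lies within the former.
HSPB7: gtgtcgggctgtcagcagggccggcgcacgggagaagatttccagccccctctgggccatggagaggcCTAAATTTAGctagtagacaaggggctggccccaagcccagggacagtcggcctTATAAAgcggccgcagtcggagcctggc
PPP1R3A: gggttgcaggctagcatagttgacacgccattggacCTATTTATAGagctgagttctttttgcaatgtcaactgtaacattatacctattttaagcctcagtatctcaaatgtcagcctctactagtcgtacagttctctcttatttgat
The MEF2 word was found in 1.41% and the TATA word in 7.05% of the 27305 promoters, on either strand. The share for the MEF2 word can include matches whose middle is not A/T-rich.

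The general machinery of respiration moved less. Of 24 nuclear respiratory chain genes 19 fell, none rose and none was called, with a median of -0.94. UQCRC2, a core protein of complex III, was at 113 and 140.2 against 518 and 437 CPM (-1.91, 0.21, 0.000734). With realigned WT replicates 1 and 2, 10 of the 24 fell and 1 rose. Of 22 glycolysis genes 12 fell and 6 rose, with a median of -0.97. With realigned WT replicates 1 and 2 the glycolysis median turned to 0.15, with 7 genes higher and 6 lower. GPI, glucose-6-phosphate isomerase, was at 108 and 133 against 712 and 717 CPM (-2.57, 0.22, 0.000319). The genes that rose include liver forms: PKLR, the pyruvate kinase of liver and red cells, was at 4.12 and 2.92 CPM in shRNA cells and not counted in WT, at least 14.5-fold higher. SLC2A2, the glucose transporter of liver and gut, was at 8.19 and 10.6 against 0.575 and 0.439 CPM (4.16, 0.46, 0.000732).

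The regulators of the heart split. Of 29 cardiac transcription factor genes tested, 18 fell, 10 of them called, 2 rose and 9 did not pass the test (median -2.08). ISL1, a factor of the second heart field, was at 0.981 and 1.34 against 65.8 and 64.7 CPM (-5.80, 0.26, 0.000111). The Iroquois gene IRX4, a marker of ventricle, was at 0.883 and 1.39 against 37.6 and 80.3 CPM (-5.68, 0.49, 0.000331), and IRX3 at 0.0981 and 1.1 against 23.9 and 40.5 CPM (-5.72, 0.77, 0.00146). MEF2C was at 39.4 and 34.6 against 599 and 449.9 CPM (-3.83, 0.23, 0.000165) and TBX20 at 42.3 and 76.4 against 650.1 and 735 CPM (-3.54, 0.34, 0.000448). TBX5 was at 0.785 and 10.6 against 92.7 and 99.1 CPM (-4.07, 0.90, 0.00977), but its adjusted p was 0.0528 without WT replicate 3 and 0.0539 without WT replicate 4.

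The heart GATA factors GATA4 and GATA6 did not pass the test. GATA4 was at 207 and 126 against 148 and 226 CPM (-0.16, 0.30, 0.68), and the groups overlapped. GATA6, which endoderm uses as well, was at 117 and 124 against 111 and 143 CPM (-0.07, 0.20, 0.797), also with overlap. The sign of both small changes depended on the library left out. HAND1, a factor of the first heart field and of extraembryonic mesoderm, was at 102 and 117 against 52.6 and 63.1 CPM (0.92, 0.19, 0.0075), and its adjusted p was 0.0536 without WT replicate 3.

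Natriuretic peptides moved in opposite directions. NPPA, the peptide of atrial muscle, was at 0.196 and 0.623 against 7.58 and 3.74 CPM (-3.78, 0.67, 0.00421), whereas NPPB was at 137 and 237 against 53.8 and 24.4 CPM (2.25, 0.43, 0.00548). In each case both shRNA libraries lay on 1 side of both WT libraries. Of all genes tested, 36.3% were higher and 35.4% lower in this way.

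Of 19 genes of the BMP and TGFβ pathways 8 fell and 2 rose. BMP7 was at 1.03 and 4.93 against 139 and 169 CPM (-5.68, 0.64, 0.000809), TGFB2 at 61.3 and 78.4 against 1081 and 1162 CPM (-4.01, 0.24, 0.000165), and the BMP-binding BMPER at 6.28 and 9.05 against 127 and 121 CPM (-4.02, 0.26, 0.000165). BMP5 was at 2.75 and 56.1 against 774 and 865 CPM (-4.80, 1.12, 0.0123), a fall whose adjusted p was 0.057 without WT replicate 3 and 0.059 without WT replicate 4. BMP4, which induces mesoderm, did not pass the test, at 13.3 and 27.9 against 36.3 and 38.5 CPM (-0.86, 0.33, 0.069).

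Of 18 FGF pathway genes 8 fell and 4 rose. The ligands FGF8 and FGF10 of the second heart field were at 0.196 and 0.192 against 6.53 and 7.58 CPM (-5.14, 0.46, 0.000377) and at 0.736 and 1.63 against 44.1 and 46.7 CPM (-5.25, 0.38, 0.000203). FGF9 was at 0.196 and 0.575 against 26.7 and 20.8 CPM (-5.92, 0.52, 0.000338). The receptor FGFR4, known from liver, rose and was at 163 and 118 against 7.53 and 4.72 CPM (4.49, 0.31, 0.000169).

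Of 19 WNT pathway genes 8 fell and 4 rose. The ligand WNT2 had 0 counts in shRNA replicate 1 and 0.0958 CPM in replicate 2, against 14.9 and 24.1 CPM in WT, and was at least 134-fold lower. RSPO3, which strengthens WNT signals, was at 21.4 and 50.8 against 428 and 401 CPM (-3.52, 0.39, 0.000795), whereas FRZB, a secreted WNT antagonist, was at 461 and 463 against 36 and 8.24 CPM (4.36, 0.62, 0.00181). Of 14 Notch pathway genes 4 rose and 2 fell, with a median of 0.23. With realigned WT replicates 1 and 2 the Notch median turned to -0.82, with 2 genes higher and 8 lower. The ligand JAG1 was at 33.1 and 44.8 against 194 and 143 CPM (-2.12, 0.24, 0.000841) and the endothelial receptor NOTCH4 at 6.97 and 6.9 against 1.52 and 1.21 CPM (2.32, 0.41, 0.00399). Of 15 retinoic acid genes 5 rose and 3 fell, and with realigned WT replicates 1 and 2, 5 of 16 were higher and 6 lower. CRABP2, a carrier of retinoic acid, was at 14.5 and 20.6 against 67.1 and 50.9 CPM (-1.75, 0.25, 0.00192).

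**Figure D2:**
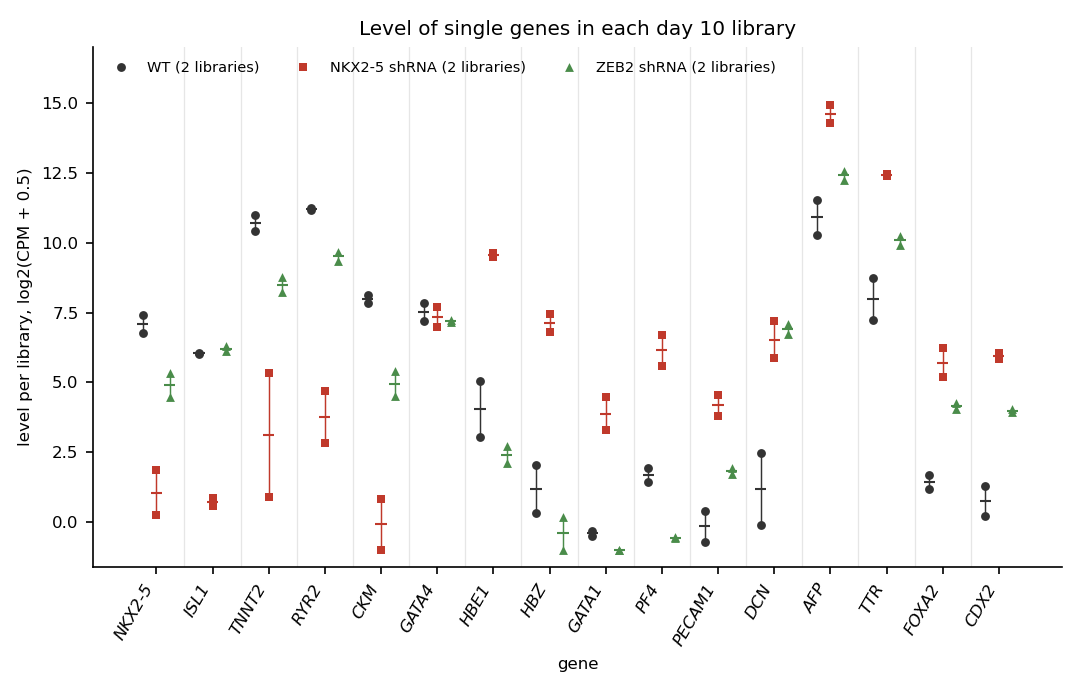
Level of 16 genes in each day 10 library, as log2(CPM + 0.5) on the y axis, for WT (black circles), NKX2-5 shRNA (red squares) and ZEB2 shRNA cells (green triangles). Points are the 2 libraries of a group, horizontal ticks their mean and vertical lines their range. The red squares of TNNT2, RYR2 and CKM lie below both WT libraries, those of HBE1, GATA1, AFP and CDX2 lie above them, and those of GATA4 overlap with WT.

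Hemoglobin transcripts, nearly absent from ZEB2 shRNA cells, were the most raised of all the lists. Of 9 globin genes tested 8 rose and all 8 were called, with a median of 5.20 (5.04 with bounds). The summed level of the list was 2113 and 2644 CPM in the shRNA libraries, 101 and 16.9 CPM in WT and 5.85 and 9.93 CPM in ZEB2 shRNA cells. The study named 6 of these genes on the same samples, so the count is not independent evidence. HBE1, the embryonic β-like chain, was at 714 and 800.4 against 32.9 and 7.69 CPM (5.20, 0.65, 0.00118). HBZ, the embryonic α-like chain, was at 111 and 172 against 3.66 and 0.769 CPM (5.86, 0.89, 0.00226). WT replicate 3 was above WT replicate 4 for both, and both shRNA libraries were above either. The fetal genes HBG1 and HBG2 were at 566 and 632 against 25.1 and 2.86 CPM and at 529.6 and 649 against 24.1 and 2.53 CPM, and the α genes HBA1 and HBA2 at 96.4 and 196 against 7.27 and 0.989 CPM and at 89.1 and 189 against 7.11 and 1.87 CPM. Reads of these nearly identical pairs were placed at 1 best hit, so the split within a pair is uncertain, as is that between HBE1 and the globin genes its annotated region overlaps. HBB, the adult β chain, did not pass the filter: it was counted 5 and 272 times in the shRNA libraries and 0 times in both WT libraries.

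Of 20 erythroid genes 12 rose, 7 of them called, and none fell (median 1.96). ALAS2, the heme synthesis enzyme of red cells, was at 47.2 and 55.6 against 1.57 and 0.879 CPM (5.32, 0.35, 0.000169). RHAG of the Rh complex was at 17.2 and 7.95 CPM against 0.209 and 0 CPM (6.47, 0.94, 0.00198). Among the genes that did not pass was TFRC, the transferrin receptor of most dividing cells, with a change of 0.04 (0.22, 0.898) whose sign depended on the library left out.

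Platelet genes rose in 14 of 17 tested, 9 of them called, and 1 fell (median 3.99). MMRN1, PF4 and PLEK had been named by the study on these samples. PF4, a chemokine of platelet granules, was at 47.6 and 104 against 3.29 and 2.2 CPM (4.74, 0.45, 0.000436). The receptor subunit GP9 was at 15 and 7.23 CPM, against 0.209 and 0 CPM in WT (6.30, 0.89, 0.00181). PLEK, pleckstrin of platelets and leukocytes, was at 62.6 and 44.2 against 1.78 and 0.659 CPM (5.34, 0.51, 0.000452), and MMRN1, multimerin 1, at 25.7 and 28.9 against 3.35 and 1.1 CPM (3.54, 0.47, 0.00145). The gene that fell, GP1BB, was at 8.05 and 10.8 against 14.9 and 27.2 CPM, but its adjusted p was 0.0706 without shRNA replicate 1 and 0.214 without WT replicate 4, and its change was 0.48 with realigned WT libraries.

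Transcription factors of the blood lineages rose in 11 of 17 tested, 9 of them called, with none lower. GATA1, KLF1, FLI1, RUNX1 and TAL1 are among the genes the study named on these samples. SPI1 (PU.1), the factor of myeloid cells, did not pass the filter, with 16 and 4 counts in the shRNA libraries and 3 and 0 in WT. GATA1, required for red cells and megakaryocytes, was at 21.6 and 9.24 against 0.314 and 0.22 CPM (5.76, 0.67, 0.00134). TAL1, which specifies blood from mesoderm, was at 42.8 and 30.8 against 2.51 and 1.32 CPM (4.21, 0.38, 0.000395). RUNX1, needed for definitive blood, was at 26.4 and 15.5 against 1.36 and 0.439 CPM (4.41, 0.53, 0.000988). No shRNA library overlapped with WT for these 3 genes. Of all genes tested 36.3% were higher without overlap, and the naming rule favoured such genes. KLF1 of the red lineage was at 9.13 and 8 against 0.732 and 0.879 CPM (3.42, 0.52, 0.00234), and FLI1 of megakaryocytes and endothelium at 50.2 and 38.3 against 5.23 and 3.08 CPM (3.38, 0.34, 0.000545). GATA2, a factor of early progenitors, was at 15.7 and 6.32 against 3.19 and 6.15 CPM and did not pass the test (1.26, 0.51, 0.0788), and with realigned WT replicates 1 and 2 its change was -1.70.

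The promoters of ALAS2 and TAL1 are shown because both genes are known targets of GATA1 and hold its word near the start. The stretches are 150 bases on the minus strand, at chrX:55030978-55031127 for ALAS2 and chr1:47232336-47232485 for TAL1 (GRCh38.p14). Capitals mark the GATA word AGATAA, here as its reverse complement.
ALAS2: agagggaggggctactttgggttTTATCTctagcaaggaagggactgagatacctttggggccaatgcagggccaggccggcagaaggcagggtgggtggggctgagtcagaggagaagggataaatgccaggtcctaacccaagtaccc
TAL1: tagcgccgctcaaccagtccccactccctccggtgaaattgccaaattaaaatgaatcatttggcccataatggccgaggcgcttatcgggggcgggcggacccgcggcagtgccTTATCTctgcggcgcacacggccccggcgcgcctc
This word was found in 5.23% of the 27305 promoters on either strand.

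Of 18 listed leukocyte genes 11 were tested. Of these 7 rose, 6 of them called, and 4 did not pass 5% FDR. The defining marker PTPRC (CD45) and the granule enzyme MPO had 0 counts in all 4 libraries. CD34, a marker of blood progenitors and endothelium, was at 22.6 and 24 against 0.47 and 0.659 CPM (5.41, 0.38, 0.000192). The macrophage receptors CD163 and CSF1R were at 29.4 and 11.6 against 0.941 and 0.769 CPM (4.55, 0.54, 0.00099) and at 11.7 and 5.46 against 0.261 and 0.769 CPM (4.20, 0.68, 0.00304). LCP1, an actin-bundling protein that epithelia can share with leukocytes, made up most of the summed CPM of the list in each library, at 1005 and 842 against 107 and 52.6 CPM.

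Endothelial genes rose in 14 of 18 tested, 7 of them called (median 2.66). PECAM1 (CD31) was at 22.9 and 13.6 against 0.836 and 0.11 CPM (5.04, 0.66, 0.00133). TIE1, a receptor of endothelium, was at 15.8 and 14.7 against 0.314 and 0.659 CPM (5.07, 0.49, 0.000458), and CDH5, its cadherin, at 13.6 and 22.6 against 1.99 and 0.659 CPM (3.67, 0.53, 0.00196). Of the other 4 genes 3 did not pass 5% FDR and 1 fell. This was KDR, the VEGF receptor of endothelium and of cardiac and blood mesoderm, which went from 417 and 343 CPM in WT to 47.4 and 96.6 CPM (-2.40, 0.35, 0.00192). KDR made up most of the summed CPM of the list in WT, and that sum, at 399 and 517 against 518 and 409.6 CPM, overlapped between the groups.

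Mesenchymal genes rose to a lesser degree. Of 19 stromal genes 14 rose and 4 were called, with a median of 1.94, and against realigned WT replicates 1 and 2 the median was 0.83, with 9 higher and 1 lower. DCN, the proteoglycan decorin, was at 58.4 and 145 against 5.12 and 0.439 CPM (5.04, 0.82, 0.00308). POSTN, periostin, was at 248 and 209.6 against 12.4 and 5.49 CPM (4.64, 0.42, 0.000399), and FOXF1, a factor of splanchnic and extraembryonic mesoderm, at 19.1 and 28.7 against 1.25 and 0.989 CPM (4.38, 0.37, 0.000319). The collagens COL1A1 and COL3A1 were at 952 and 1871 against 280.5 and 359 CPM (2.14, 0.34, 0.00281) and at 1356 and 2426 against 649 and 247 CPM (2.08, 0.49, 0.0122). PDGFRA, of cardiac mesoderm and fibroblasts, did not pass the test, at 199 and 183 against 237 and 226 CPM (-0.28, 0.22, 0.327).

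Smooth muscle genes moved both ways, with 5 of 14 higher and 4 lower. MYLK, myosin light chain kinase, was at 34.9 and 32.7 against 2.56 and 1.32 CPM (4.06, 0.36, 0.000349), whereas ACTA2, smooth muscle actin, which early cardiomyocytes also use, was at 117 and 241 against 531 and 393 CPM (-1.37, 0.35, 0.0177). The fall of ACTA2 had an adjusted p of 0.112 without WT replicate 3 and 0.0505 without WT replicate 4. Of 13 epicardial genes 5 rose and 1 fell. WT1 and TBX18, which define the epicardium, did not pass the test, with changes of -0.48 (0.94, 0.707) and -1.23 (0.85, 0.271).

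The secreted proteins of liver and yolk sac endoderm were raised as a group. Of 22 hepatic secretory genes tested 21 rose, 12 of them called, and in all 22 both shRNA libraries were above both WT libraries, where 36.3% of all genes tested showed this. The summed level was 46990.0 and 35986 CPM in shRNA cells and 4899 and 1819 CPM in WT, and the median change 3.61. WT replicate 3 was above WT replicate 4 for all 22 of these genes. The study named ALB, AFP, RBP4 and TTR on the same samples. AFP, α-fetoprotein, was at 31324 and 20031 against 2979.8 and 1228 CPM (3.61, 0.50, 0.00163). TTR, transthyretin, was at 5629 and 5346 against 429 and 149.97 CPM (4.24, 0.51, 0.001). HPX, hemopexin, was at 304 and 205 against 13.7 and 6.59 CPM (4.61, 0.41, 0.000351). The coagulation factor F2, prothrombin, was at 37.7 and 45.5 against 3.76 and 1.1 CPM (4.001, 0.48, 0.00103). ALB, serum albumin of mature liver, was at 319 and 24 against 12.5 and 5.38 CPM, with shRNA replicate 1 more than 10 times replicate 2 (4.23, 1.07, 0.0167). Its adjusted p was 0.086 without WT replicate 3 and 0.13 without WT replicate 4.

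All 16 tested genes of apolipoproteins and lipid transport rose, 10 of them called (median 3.72), and the study had named APOC2, APOA2 and FABP1 among them. APOA4 was at 4485 and 4277 against 366 and 96 CPM (4.24, 0.60, 0.0018), and APOA1, the main protein of high-density lipoprotein, at 3030.1 and 2427 against 262 and 88 CPM (3.96, 0.51, 0.00125). APOB, which makes chylomicrons and very low-density lipoprotein, was at 7916 and 7783 against 1074 and 417 CPM (3.40, 0.45, 0.00145). In each, the replicates of shRNA cells lay close together. LIPC, hepatic lipase, was at 50.1 and 48 against 3.71 and 1.32 CPM (4.20, 0.43, 0.000556), and AMN, the partner of cubilin in yolk sac, kidney and gut, at 56.3 and 60.8 against 1.57 and 2.09 CPM (5.03, 0.28, 0.000165). FABP1, a fatty acid carrier of liver and gut, rose with all libraries (9.37 and 47.9 against 8.21 and 1.98 CPM, 2.44, 0.84, 0.0485), but its adjusted p was 0.278 without shRNA replicate 2, 0.0652 without WT replicate 3 and 0.214 without WT replicate 4.

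Enzymes of the liver rose in 12 of 14 tested, 8 of them called (median 4.07, or 3.53 with bounds). PCK1, of gluconeogenesis, was at 11.7 and 3.69 against 0.209 and 0.22 CPM (5.13, 0.76, 0.00209). CPS1, of the urea cycle, was at 114 and 69.8 against 30.0 and 20.2 CPM (1.87, 0.33, 0.0041). CYP3A7, the fetal liver cytochrome, did not pass the filter and was counted 57 times in shRNA replicate 1 and 0 times in the other 3 libraries.

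The transcription factors of endoderm rose with them, in 15 of 18 tested, 12 of them called, with 1 lower (median 4.09), and the study had named SOX17, FOXA1, FOXA2, GATA3 and GATA6 among them. FOXA2 was at 74 and 36.2 against 2.72 and 1.76 CPM (4.58, 0.43, 0.000448) and FOXA1 at 87.5 and 68 against 4.34 and 1.54 CPM (4.64, 0.44, 0.000445). HNF4A, a master factor of liver and gut, was at 177 and 219 against 18.8 and 8.57 CPM (3.84, 0.37, 0.000462). All 3 were above WT in both shRNA libraries, as were 36.3% of all genes tested. CDX2, a factor of intestine and also of trophoblast and posterior mesoderm, was at 57.3 and 65.9 against 1.93 and 0.659 CPM (5.44, 0.42, 0.000248). NR1H4, the bile acid receptor, was at 12.4 and 5.65 CPM and at the limit of detection in WT, at least 37-fold higher. The definitive endoderm factor SOX17 was low, at 2.16 and 5.12 against 0.836 and 0.439 CPM (2.43, 0.59, 0.0138), with adjusted p of 0.0539 without WT replicate 3 and 0.0809 without WT replicate 4. GATA3 did not pass the test (-0.91, 0.32, 0.0507), and PROX1, which heart, liver and lymphatic endothelium share, fell from 187 and 187 to 48 and 46.6 CPM (-1.98, 0.17, 0.000349).

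All 16 tested epithelial genes rose, 8 of them called (median 2.96). CDH17, a cadherin of intestine and fetal liver, was at 192 and 27.6 against 0.889 and 0.549 CPM (7.16, 1.02, 0.00184), with both shRNA libraries above WT and replicate 1 the higher of them. CDH1, E-cadherin, was at 247 and 210.3 against 28.2 and 11.2 CPM (3.52, 0.41, 0.000937), EPCAM at 351 and 239 against 43.5 and 29.1 CPM (3.02, 0.29, 0.000452), and the microvillus protein VIL1 at 159 and 119 against 11.8 and 4.07 CPM (4.09, 0.46, 0.000802). With realigned WT replicates 1 and 2, 10 of 17 tested epithelial genes rose and 1 fell.

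Of 10 trophoblast genes tested 5 rose, none of them called, and with realigned WT replicates 1 and 2, 2 of 9 were higher and 2 lower. Of 9 neural genes 4 fell and 2 rose. TUBB3, a neuronal tubulin that other cells can use, was at 84.5 and 161 against 16.3 and 13.2 CPM (3.05, 0.36, 0.000928). Of 6 skeletal muscle genes tested 4 fell, all called, and 2 rose. ACTN3, an α-actinin of fast fibres, was at 0.932 and 0.575 against 47.4 and 49.99 CPM (-6.00, 0.40, 0.000169). Of 8 HOX genes tested 3 rose and none fell, and HOXB6 was at 5.84 and 8.24 against 1.41 and 0.439 CPM (2.81, 0.52, 0.0052).

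Of the pluripotency genes, POU5F1 and SOX2, which define the state, had at most 10 and 4 counts in any of the 4 libraries. Of 11 tested 4 rose and 2 fell. CRIPTO, a NODAL co-receptor, was at 4.07 and 5.03 against 28.8 and 34.4 CPM (-2.79, 0.25, 0.000366), whereas DPPA4 was at 42.1 and 48.4 against 12.8 and 12.2 CPM (1.85, 0.21, 0.000851). None of the 11 mesendoderm genes tested passed 5% FDR, and the sign of their median (-0.34) depended on the setting, at 0.65 with the exact test and 0.52 without WT replicate 4. Of 25 cell cycle genes 3 rose and 2 fell, none of them called, with a median of 0.09. MKI67, a marker of proliferation, was at 84.8 and 121 against 106 and 93.6 CPM (0.04, 0.22, 0.902), and the groups overlapped.

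Genes of stress and interferon response rose in 12 of 19 tested, 3 of them called, and 1 fell (median 1.25). With realigned WT replicates 1 and 2, 6 were higher and 6 lower, 1 gene was called, and the median was 0.34. HMOX1, heme oxygenase 1, was at 35.4 and 26.1 against 2.4 and 2.53 CPM (3.64, 0.35, 0.000483). Interferon-induced genes differed between the shRNA replicates: MX1 was at 84.6 and 2.39 CPM against 0.157 and 0.22 CPM in WT. Its change of 7.88 (1.82, 0.0117) had adjusted p of 0.112 without WT replicate 3 and 0.0874 without WT replicate 4. IFIT1 of the same response fell, at 11.7 and 5.55 against 32.9 and 31.8 CPM (-1.90, 0.37, 0.00583).

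Among called genes whose groups did not overlap and whose mean was at least 10 CPM in the higher group, the 10 largest falls included ABRA, HHATL, CKM, PHACTR3, WNT2, NELL2, SRL, PPP1R3A and TRDN. HHATL, a relative of hedgehog acyltransferase expressed in heart and muscle, had 0 counts in both shRNA libraries and was at 13.3 and 14 CPM in WT, at least 93.8-fold lower. NELL2, a secreted protein known from neurons, had 0 counts and 0.0958 CPM in the shRNA libraries and was at 21.3 and 12 CPM in WT, at least 114-fold lower.

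By the same limits the 10 largest rises were MIR9-2HG, MMP1, COL4A3, RBP2, UCA1, ATP12A, NUPR1, PTGS1, PKHD1 and TMEM158. RBP2, a retinol carrier of the intestine, was at 27.9 and 44.1 CPM, against 0.105 and 0 CPM in WT, and was at least 148-fold higher. MMP1, interstitial collagenase, was at 274 and 59.5 CPM, against 0.209 and 0 CPM (10.17, 1.07, 0.000649). ATP12A, a proton pump of the gut epithelium, was at 31.7 and 15.4 CPM, against 0.105 and 0 CPM, and was at least 96.9-fold higher. For several others the size rested on shRNA replicate 1. COL4A3, a basement membrane collagen, was at 213 and 7.9 CPM, UCA1, a long noncoding RNA, at 140.0 and 4.41 CPM, and NUPR1, a stress-induced chromatin protein, at 161 and 10.1 CPM, each against less than 0.5 CPM in WT. PTGS1, cyclooxygenase 1, was at 354 and 11.2 against 0.836 and 0.659 CPM. Without WT replicate 3 the adjusted p was 0.0682 for COL4A3, 0.0917 for UCA1, 0.0598 for NUPR1 and 0.0806 for PTGS1, and without WT replicate 4 it was 0.0657, 0.0743, 0.0544 and 0.073.

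The 2 NKX2-5 shRNA libraries differed from each other more than the replicates of the other groups. Of 15232 genes with a mean of at least 1 CPM over the 2 libraries, 403 were at least 4-fold apart after 0.5 CPM was added. Of these, 260 were higher in replicate 1 and 143 in replicate 2. Between the WT libraries 38 genes were 4-fold apart, 35 of them higher in replicate 3, and between the ZEB2 shRNA libraries 1 was. The chi-square statistic per gene was 108 in NKX2-5 shRNA cells, 21.4 in WT and 14.1 in ZEB2 shRNA cells, where counting noise alone gives about 1, so no pair was the same library. Higher in replicate 2 were sarcomere genes, 24 of 33 of them, such as TNNT2 and MYH6, 8 of 9 globin genes and 21 of 25 cell cycle genes. Higher in replicate 1 were 14 of 18 endoderm regulators, 16 of 17 blood regulators and 15 of 19 stress and interferon genes. Other lists were split near evenly, such as hepatic secretory genes (11 higher in each replicate) and muscle energy genes (10 higher in replicate 1 and 11 in replicate 2). The share of all genes tested that was higher in each replicate was not counted, so these list counts have no baseline. NKX2-5 itself was higher in replicate 2 as well, at 3.16 against 0.687 CPM. With 2 libraries no relation between these values was tested.

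**Figure D3:**
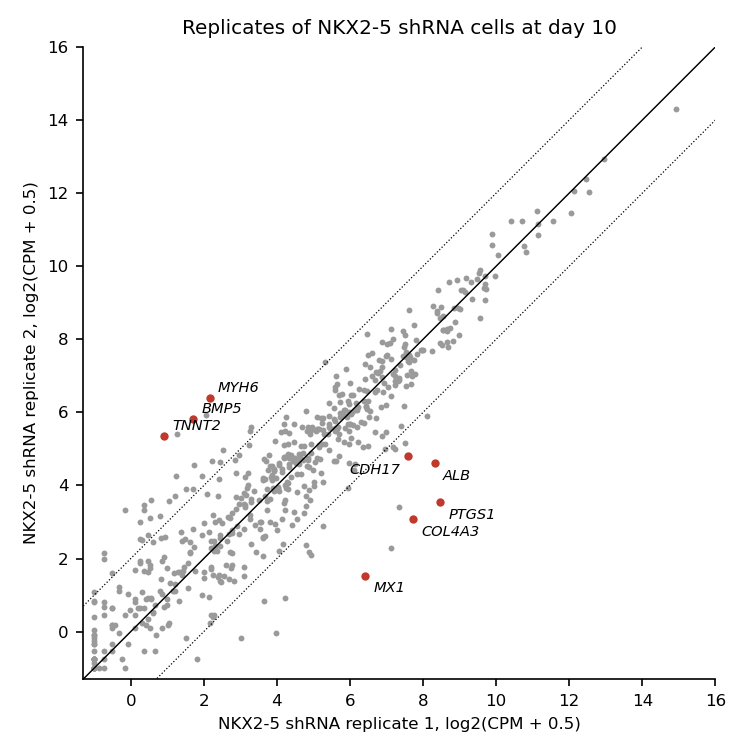
Level of every tested list gene in NKX2-5 shRNA replicate 1 (x axis) against replicate 2 (y axis) at day 10, both as log2(CPM + 0.5). The solid line marks equal levels, dotted lines mark a 4-fold difference, and 8 named genes are red. TNNT2, MYH6 and BMP5 lie above the upper dotted line and ALB, CDH17, MX1, PTGS1 and COL4A3 below the lower one.

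The ZEB2 shRNA line shows which of these changes another knockdown line shared at the same day. Its comparison with WT uses the same WT libraries, so the values are given side by side, and the test is the direct contrast of the 2 shRNA lines. In that contrast 331 of 17004 genes were called (1.95%), 128 higher in NKX2-5 shRNA cells (0.753%) and 203 lower (1.19%), while 21.3% differed at 5% FDR, 10.5% higher and 10.8% lower. Against WT, ZEB2 shRNA cells had 1.46% of genes called, 0.976% higher and 0.482% lower, and 18.2% past 5% FDR, 10.6% higher and 7.67% lower. In the direct contrast the number of calls fell far below 331 without either ZEB2 shRNA replicate and rose above it without NKX2-5 shRNA replicate 2.

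Sarcomere genes were lower in NKX2-5 than in ZEB2 shRNA cells in 28 of 33, 14 of them called, and their median against WT was -6.10 in NKX2-5 and -2.43 in ZEB2 shRNA cells. RYR2, for example, was at 6.67 and 25.5 CPM in NKX2-5 and 815 and 656 CPM in ZEB2 shRNA cells (direct change -5.51, 0.62, 0.00271). ISL1 was at 68.8 and 78.1 CPM in ZEB2 shRNA cells, near the WT levels of 65.8 and 64.7 CPM, and the direct change was -5.97 (0.26, 0.000322). All 9 globin genes were higher in NKX2-5 than in ZEB2 shRNA cells, 6 of them called. GATA1 was not counted in either ZEB2 shRNA library, and PF4 was at 0.188 and 0.173 CPM there (direct change 8.66, 0.57, 0.000789). ALAS2 was at 0.25 and 0.302 CPM in ZEB2 shRNA cells (direct change 7.52, 0.39, 0.000478). Erythroid genes were higher in NKX2-5 shRNA cells in 13 of 20 and platelet genes in 12 of 17.

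Of 18 endoderm regulators 14 rose in ZEB2 shRNA cells, and 11 were higher in NKX2-5 than in ZEB2 shRNA cells. CDX2 was at 15.9 and 14.7 CPM in ZEB2 shRNA cells (direct change 2.01, 0.34, 0.00952) and TTR at 969.8 and 1223 CPM (direct change 2.32, 0.47, 0.0163). Of the stromal genes 2 of 19 were higher in NKX2-5 shRNA cells and 4 lower. DCN was at 106 and 135 CPM in ZEB2 shRNA cells (direct change -0.24, standard error 0.67, adjusted p = 0.818), and POSTN at 126 and 191 CPM (direct change 0.53, standard error 0.36, adjusted p = 0.316). RUNX1 was at 13.9 and 11.1 CPM in ZEB2 shRNA cells, and its direct change of 0.74 did not pass the test (standard error 0.43, adjusted p = 0.243). Epithelial genes rose in ZEB2 shRNA cells in 15 of 16 (median 2.37), and 3 were higher and 1 lower in NKX2-5 than in ZEB2 shRNA cells. Apolipoprotein and lipid transport genes rose there in 11 of 16, and 9 were higher in NKX2-5 shRNA cells. Hepatic secretory genes rose there in 9 of 22, and 8 were higher in NKX2-5 shRNA cells, none of them called. Endothelial genes rose there in 7 of 18, and 5 were higher and 1 lower in NKX2-5 shRNA cells, none of them called. Respiratory chain genes fell there in 16 of 24 (median -0.96), and 1 was lower in NKX2-5 shRNA cells. A p that misses the threshold does not show that the lines act alike. Trophoblast genes were lower in NKX2-5 than in ZEB2 shRNA cells in 6 of 10.

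The change against WT at day 10 was tested against that at day 6, from separate libraries, with 2 per group and day. Of 17107 genes 257 were called for this difference (1.5%), 178 with the effect shifted up by day 10 (1.04%) and 79 shifted down (0.462%), and at 5% FDR 16% passed, 9.48% shifted up and 6.56% down. At day 6 itself 3.51% of genes were called, 0.865% higher and 2.64% lower, and 27.3% passed 5% FDR, 12.9% higher and 14.3% lower. Without WT day 10 replicate 3 or 4 no gene was called by edgeR. At 5% FDR 1421 and 1067 genes then passed and at an unadjusted p under 0.05 5299 and 5017, while DESeq2 with all libraries called 621. The contractile deficit was present at day 6: 31 of 33 sarcomere genes fell at that day, with a median of -6.53, and at 5% FDR the difference between the days passed for 10 of 33. RYR2 had a change of -7.19 at day 6 (adjusted p = 0.000353) and -7.19 at day 10.

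Of 9 globin genes 1 rose at day 6, and the shift to day 10 passed 5% FDR in 1 and not in the other 8. Of 17 platelet genes none rose at day 6 and 2 fell, and the effect shifted up in 8. ALAS2 was lower than WT at day 6, with a change of -2.61, and the shift to day 10 was 7.92 (standard error 0.56, adjusted p = 0.0011). Of 19 endothelial genes 2 rose at day 6 and 4 fell, and 13 shifted up. PECAM1 was between 4 and 5.64 CPM in WT and between 4.42 and 5.29 CPM in shRNA cells at day 6, and at day 10 the shRNA libraries were above and the WT libraries below these levels (shift 5.02, standard error 0.77, adjusted p = 0.00735). Of 19 stromal genes none rose at day 6 and 14 shifted up. Cell cycle genes were lower at day 6 in 21 of 25, and 21 of 25 shifted up by day 10.

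Endoderm genes were partly raised at day 6. Of 22 hepatic secretory genes 9 rose at that day, with a median of 2.26, and 2 shifted up, among them HPX (shift 4.02, standard error 0.46, adjusted p = 0.00271). Of 18 endoderm regulators 12 rose at day 6 and 6 shifted up. IRX4 did not differ at day 6 beyond the spread of the libraries (0.20, adjusted p = 0.738) and was lower by day 10 (shift -5.89, standard error 0.58, adjusted p = 0.00195). RSPO3 had a change of 0.93 at day 6 (adjusted p = 0.0764) and a shift of -4.45 (standard error 0.50, adjusted p = 0.00259).

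**Figure D4:**
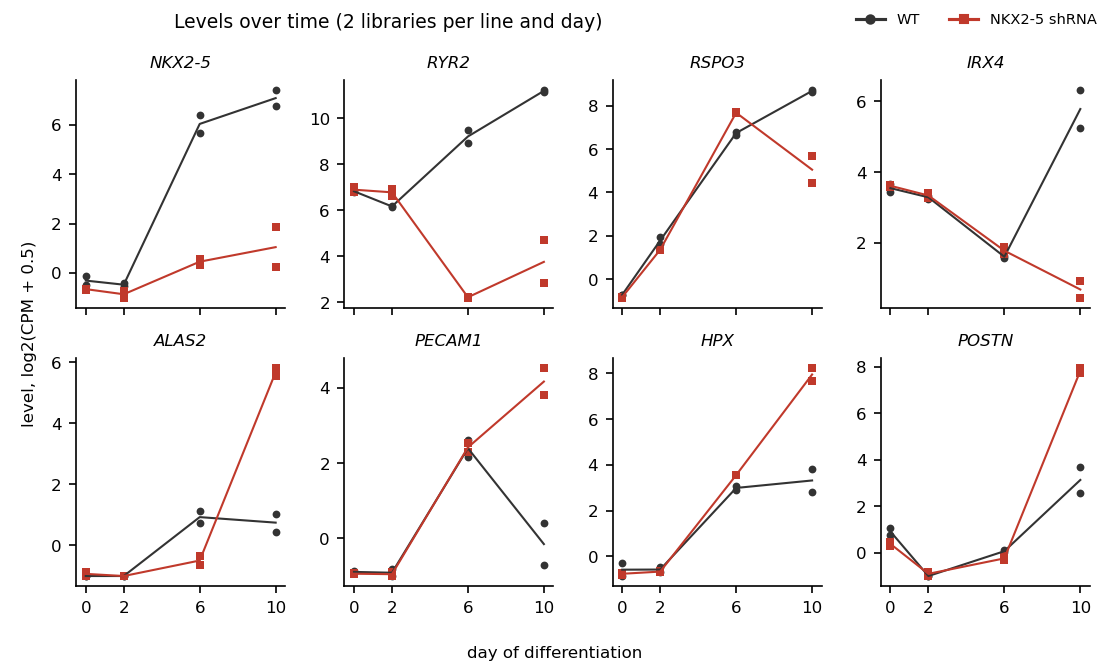
Level of 8 genes over time, as log2(CPM + 0.5) on the y axis against the day of differentiation (0, 2, 6 and 10) on the x axis, in WT (black circles) and NKX2-5 shRNA cells (red squares). Points are the 2 libraries per line and day and lines join their means. NKX2-5 and RYR2 already lay below WT at day 6, ALAS2 lay below WT at day 6 and above it at day 10, PECAM1, HPX and POSTN separated from WT between days 6 and 10, and RSPO3 and IRX4 lay below WT at day 10 but not at day 6.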

How the data were processed

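RNA-seq was read from H1 cells at day 10 of cardiac differentiation. The authors mapped stranded total RNA reads to hg19 (GRCh37), keeping 1 best hit per read, and counted reads per RefSeq transcript with RSeQC. The submitters' processing notes name TopHat2 2.0.14, Bowtie2 2.2.1.0 and SAMtools 0.1.19.0. The deposited values used here are raw read counts, and a deposited table of normalized values was not used.

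The deposited count table holds 41627 transcript accessions, of which 40285 (97.103% of counts) were matched to 23189 gene symbols, and the row with the largest total stood for each gene. In 4 columns (WT and ZEB2 shRNA, day 10, replicates 1 and 2) values did not follow the accessions, and they were left out. For an alternative added after seeing the data they were realigned with a hidden Markov model against replicates 3 and 4, so their likeness to those is not independent. Of its positions 96.3557% had a posterior of at least 0.9. In tests on columns with known order 99.94% and 99.49% of the kept positions were right, and 1 setting of the model was picked on those tests.

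Counts were tested with edgeR 4.0.16 in R 4.3.3 (TMM factors, filterByExpr, quasi-likelihood test, Benjamini-Hochberg adjustment) on 6 libraries of day 10: WT 3 and 4, NKX2-5 shRNA 1 and 2, and ZEB2 shRNA 3 and 4. The standard error is the size of the change divided by the root of F. Day 10 minus day 6 was an interaction contrast in a fit with day 6. Scripts were tested on simulated counts. Alternatives were DESeq2 1.42.0, edgeR's exact test, other factors, no filter, the 4 compared libraries alone, another choice of transcript, leaving out each library, and realigned WT libraries. The fits with realigned WT libraries also held realigned ZEB2 shRNA replicates 1 and 2, in place of or beside replicates 3 and 4.

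The 36 gene lists and the comparisons were chosen with earlier results of these data known. Genes were named by a rule: NKX2-5, up to 4 members of each list with the largest change past 5% FDR without overlap and at 1 CPM or more, the first 2 members of each list, genes the study names, and the 10 largest rises and falls of called genes at 10 CPM or more. ACTC1, ANKRD1, APOB, COL1A1, COL3A1, GP1BB, HNF4A, KDR, LCP1, MEF2C, MYH6, PROX1, TBX20, TBX5, TFRC, TPM1, TTN and XIRP2 fell outside it and were named after their values were seen, as were the list members that did not pass the filter. Promoters are from RefSeq tables (GRCh38.p14). They covered 76.1% of genes tested and 72% of genes called, under 80%, so no comparison of motif shares between gene sets was made. Some genes that the rule names are not reported here.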

Additional observations from a re-analysis of the deposited data

Results flagged for a closer look

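For 25 of the named genes the effect of the knockdown differed between day 10 and day 6 by the interaction test, at 8-fold and 1% FDR in edgeR. Values are log2 differences, day 10 effect minus day 6 effect. Among blood and platelet genes the shift was 7.92 for ALAS2, 5.21 for KLF1, 3.64 for TAL1, 7.45 for PLEK, 4.68 for MMRN1 and 5.03 for CD34. Among endothelial, stromal and smooth muscle genes it was 5.02 for PECAM1, 5.35 for TIE1, 4.40 for PDGFRB, 5.26 for POSTN, 3.99 for MYLK and 3.42 for ACTA2. Among endodermal and epithelial genes it was 4.02 for HPX, 5.60 for CPS1, 4.73 for CREB3L3, 4.12 for KRT7 and 10.38 for ATP12A. Of the other genes that shifted up, it was 4.35 for PGF of the trophoblast list, 3.59 for JAG1 of the Notch list, 3.13 for CDCA8 and 4.30 for IFIT1. The effect shifted down for 4 genes, with values of -3.50 for ACTN3, -5.89 for IRX4, -6.63 for PAX6 and -4.45 for RSPO3.

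A shift up covers different courses. JAG1 was lower than WT at day 6 (-5.71) and still lower at day 10 (-2.12), and so was IFIT1, with -6.21 at day 6 and -1.90 at day 10. POSTN had a change of -0.62 at day 6 and 4.64 at day 10, and ALAS2 of -2.61 and 5.32. All of these calls were lost when WT day 10 replicate 3 or 4 was left out, where edgeR called 0 genes, with 5299 and 5017 genes at an unadjusted p under 0.05.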

How the results depend on the processing

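Of 225 named results, the sign and side of 5% FDR held in 225 with relative log expression factors, 223 without factors, 224 without the filter, 218 with DESeq2, 219 of 222 with the exact test, 189 without WT replicate 3 and 186 without WT replicate 4. It held in 186 of 221 with realigned WT replicates 1 and 2, where 13 signs turned, in 192 of 224 with all 4 WT libraries, where 7 turned, and in 188 of 221 with the replicate block on the realigned libraries, where 13 turned. The number of calls ranged from 398 to 1802 when 1 library was left out, from 202 to 1062 for higher and from 196 to 740 for lower genes, and the number past 5% FDR from 4283 to 9253. It was 5830 at 2-fold and 5% FDR. With realigned WT libraries 478 genes were called higher. The contrast of NKX2-5 with ZEB2 shRNA gave 622 calls with DESeq2 and 28 to 1023 when 1 library was left out. The day contrast gave 621 with DESeq2 and 0 to 705. A fit with 1 library in a group assumed that it varied like the others, and the lower depth of WT replicate 4 limits low genes. The cause of these shifts was not tested.

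No paired analysis was possible because the WT libraries compared carry replicate numbers 3 and 4 and the NKX2-5 shRNA libraries 1 and 2. With realigned WT replicates 1 and 2 a replicate block could be fitted, chosen after seeing the data, and it gave 974 calls, 450 of them higher and 524 lower, against 1031 without the block.

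The sign of some log2 changes and list medians depended on the setting. It turned with realigned WT replicates 1 and 2 in place of 3 and 4 for the Notch list (-0.82), the pluripotency list (-0.15), the glycolysis list (0.15), ANKRD1 (-2.24), DLL1 (-0.34), DPPA2 (-1.09), GATA2 (-1.70), GP1BB (0.48), MKI67 (-0.63), NOTCH1 (-0.77), NOTCH2 (-0.80), SMTN (-0.21), SOX18 (-0.0841), TBX18 (1.86), TYMS (0.30) and WT1 (1.16). It turned with all 4 WT libraries for the Notch list (-0.60), the mesendoderm list (0.0238), the pluripotency list (-0.0529), ANKRD1 (-1.34), DPPA2 (-0.10), GATA2 (-0.82), MKI67 (-0.29), NOTCH1 (-0.16), NOTCH2 (-0.38) and WT1 (0.15). It turned with the replicate block on the realigned libraries for the Notch list (-1.06), the trophoblast list (-0.0699), the pluripotency list (-0.17), the glycolysis list (0.12), ANKRD1 (-2.24), DLL1 (-0.35), DPPA2 (-1.13), GATA2 (-1.75), GP1BB (0.45), MKI67 (-0.64), NOTCH1 (-0.81), NOTCH2 (-0.80), SMTN (-0.23), SOX18 (-0.20), TBX18 (1.35), TYMS (0.32) and WT1 (0.60). It turned without the filter for the skeletal muscle list (0.82) and the mesendoderm list (0.18), and the latter turned also with the exact test (0.65) and the 4 libraries alone (0.66). When 1 library was left out, values on both sides of 0 ranged from -0.30 to 0.14 for the smooth muscle list, from -0.45 to 0.0684 for the FGF list, from -0.0956 to 0.40 for the cell cycle list, from -0.17 to 0.52 for the mesendoderm list, from -0.62 to 0.0813 for ATP2A2, from -0.55 to 0.18 for GATA4, from -0.23 to 0.13 for GATA6, from -0.24 to 0.28 for MKI67, from -0.10 to 0.25 for NOTCH2, from -0.19 to 0.34 for TFRC, from -2.39 to 0.0507 for WNT2B, from -3.25 to 0.42 for WT1.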
